A study of Mus musculus with 9 samples.

Results

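Dendritic cells activate naive T cells through peptide on MHC molecules and, at the same contact, through costimulatory ligands. The B7 proteins Cd80 and Cd86 bind CD28 or the inhibitory receptor CTLA-4, and Icosl binds ICOS. The TNF-superfamily ligands Tnfsf4, Tnfsf9 and Cd70 bind OX40, Tnfrsf9 and CD27. OX40 and Tnfrsf9 appear on T cells after activation, whereas CD27 is also carried by naive T cells. Cd40 receives the return signal from CD40 ligand on helper T cells and feeds into NF-kB, Cd83 is a classical surface marker of dendritic cell maturation, and Slamf1 is a homophilic receptor of the SLAM family. These 9 genes were the members examined here. They were taken by name from the 57238 entries of the read count table, of which 15028 genes passed the filter on low counts, and each of the 9 names matched 1 entry that passed. Cd70 passed through its TDE libraries alone, having 2 to 9 reads in each of the other 6.

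The cells were bone marrow-derived dendritic cells (BMDCs) from wildtype C57BL/6 mice, grown with GM-CSF (20 ng/ml). The labels give a culture of 6 days, while the study's methods give 7 days and donor mice of 8 to 10 weeks. CTR BMDCs (3 libraries) received no treatment, NE-treated BMDCs (3 libraries) received exosomes of NIH 3T3 cells, a mouse fibroblast line, for 24 h, and TDE-treated BMDCs (3 libraries) received exosomes of tumor cells for 24 h. The labels do not name the tumor line, and the study's methods give either TC-1 or MC38 for exosomes not otherwise specified. Exosomes of each kind stand for their own source cells only. Nothing in the labels says whether the replicates were separate cultures or animals, so p-values measure the spread between these libraries, which may be technical.

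The libraries held 17469782 to 21092943 reads on genes, so that 3 reads, taken as the detection floor, corresponded to 0.135 to 0.19 CPM (a gene's reads scaled to the library's depth, normalized by TMM). CTR replicate 1 stood apart from the rest. Its log CPM correlated with the other libraries at 0.827 to 0.9, against 0.941 to 0.99 among the other 8, and its TMM factor was 0.7508 against 0.9995 to 1.074. Relative to the mean log2 CPM of CTR replicates 2 and 3 it was higher by a median of 1.62 log2 units for genes under 1 kb. For genes over 3 kb it was lower by 0.61. Results that rest on it are given with and without it.

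GM-CSF cultures hold several myeloid cell types, and in bulk RNA fewer cells of a type and less RNA per cell cannot be told apart. Of 12 dendritic cell markers, 11 passed the filter (Cd209a did not) and none was at 0 in all libraries. Their summed level was 4078 to 12328 CPM in CTR, 3900 to 4837 CPM in NE and 2301 to 2430 CPM in TDE libraries, and 3 were called lower in TDE-treated than in CTR BMDCs. The 10 macrophage markers summed to 3937 to 4716 CPM in CTR, 3749 to 4115 CPM in NE and 6600 to 7012 CPM in TDE libraries, with 2 called higher and 2 lower. The 10 neutrophil markers summed to 7126 to 28837, 7507 to 10821 and 3080.0 to 3377 CPM, with 8 called lower. The 7 eosinophil, basophil and mast cell markers summed to 504 to 1554 CPM in CTR, 531 to 602 CPM in NE and 120 to 143 CPM in TDE libraries, with 6 called lower, and the 6 B cell markers to 149.5 to 297.0, 132.5 to 151.5 and 88.1 to 91.9 CPM, with 4 called lower. CTR replicate 1 held the highest sum of each of these 5 lists among the CTR libraries. The part of these shifts in the results on the 9 genes was not tested.

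The strength of expression spanned more than 2 orders of magnitude among the 9 genes. Per kilobase of the deposited gene length, Cd83 led in CTR BMDCs at 85.0 ± 42.2 CPM per kb (SD, n = 3), followed by Cd86 at 37.1 ± 4.2, Cd80 at 32.2 ± 7.98 and Icosl at 19.5 ± 5.12 CPM per kb. Cd40 (6.19 ± 2.54), Tnfsf4 (4.64 ± 2.44) and Tnfsf9 (2.35 ± 0.808) formed a middle range, and Slamf1 (0.659 ± 0.139) and Cd70 (0.341 ± 0.298 CPM per kb) were lowest. The ranges over the CTR libraries overlapped between Cd86 and Cd80, Cd80 and Icosl, Cd40 and Tnfsf4, Tnfsf4 and Tnfsf9, and Slamf1 and Cd70. Within every CTR library, though, Cd86 lay above Cd80, Cd80 above Icosl, Tnfsf4 above Tnfsf9 and Slamf1 above Cd70. Only the order of Cd40 and Tnfsf4 differed between these libraries. In CTR replicate 1 Cd40 lay above Tnfsf4 (9.0 and 1.86 CPM per kb). In CTR replicates 2 and 3 Tnfsf4 lay above Cd40 (6.37 and 5.5, then 5.7 and 4.06 CPM per kb). The mean order of this pair in CTR thus rested on replicate 1. The same order of means held in NE-treated BMDCs except that Tnfsf4 (5.99 ± 1.23) lay above Cd40 (4.18 ± 0.49 CPM per kb), with no overlap. For this pair that was also the order in CTR replicates 2 and 3.

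In TDE-treated BMDCs the order was different. Cd83 still led at 40.4 ± 2.57 CPM per kb, but Cd80 (29.1 ± 2.16) now lay above Cd86 (23.3 ± 0.569) in every library. This order holds per kilobase alone, since in CPM not divided by length Cd86 stayed above Cd80 in every TDE library. Tnfsf9 had moved up to 12.5 ± 2.13 CPM per kb, where its libraries overlapped those of Icosl (14.5 ± 0.406). Cd40 followed at 8.4 ± 0.592, Tnfsf4 at 3.92 ± 0.944 and Cd70 at 2.9 ± 0.571 CPM per kb, the last 2 overlapping, and Slamf1 was lowest at 1.24 ± 0.0633 CPM per kb.

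**Figure D1:**
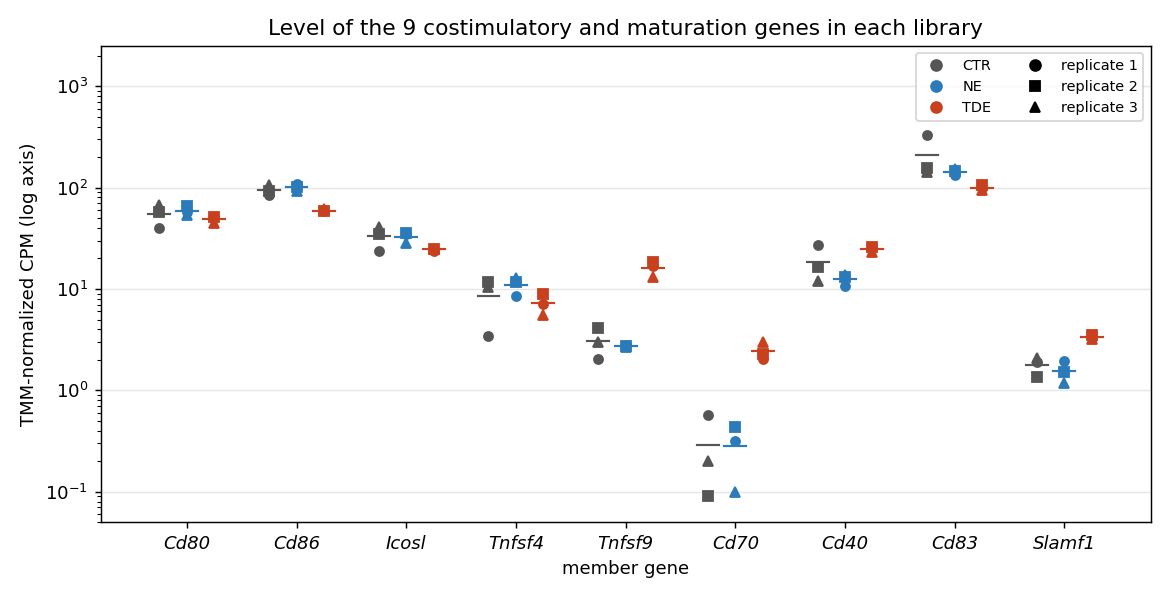
TMM-normalized CPM (log axis) of the 9 genes in each of the 9 libraries, coloured by group and shaped by replicate, with a bar at each group mean. Tnfsf9, Cd70 and Slamf1 were higher in every TDE library than in any CTR or NE library and Cd86 was lower in every TDE library, while CTR replicate 1 was the highest library for Cd83 and the lowest for Tnfsf4.

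Positions were taken by Ensembl identifier from GENCODE vM21 (GRCm38). Cd80 (chr16:38455561-38496335, plus strand) and Cd86 (chr16:36603869-36666081, minus strand) lie on the same chromosome. Tnfsf9 (chr17:57105325-57107757, plus) and Cd70 (chr17:57145997-57149777, minus) are close neighbours. Slamf1 (chr1:171767127-171801184, plus) and Tnfsf4 (chr1:161395409-161418410, plus) share chromosome 1. Icosl lies at chr10:78069302-78083913 (plus), Cd40 at chr2:165055627-165072948 (plus) and Cd83 at chr13:43784775-43803132 (plus). All 9 are protein-coding. Exons of Tnfsf9 overlap those of Gm11110 on the opposite strand, and whether reads were counted by strand is not given in the sources used here, so reads of this pair cannot be told apart. No other member shares exonic sequence with another gene of that annotation.

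Promoter windows, the 250 bases before the RefSeq start (GRCm38.p6), were given for 3 of the 9 genes, and are shown to set Slamf1, which rose in TDE-treated BMDCs, beside 2 B7 ligands, Cd80 and Icosl, which were not called. They were searched on both strands for AP-1 (TGANTCA), NF-kB, the PU.1 core (GAGGAAGT), CRE (TGACGTCA), E-box (CACGTG) and IRF motifs, and capitals mark matches. Bases covered by a GENCODE exon are left out.
Cd80, chr16:38458683-38458932, plus strand: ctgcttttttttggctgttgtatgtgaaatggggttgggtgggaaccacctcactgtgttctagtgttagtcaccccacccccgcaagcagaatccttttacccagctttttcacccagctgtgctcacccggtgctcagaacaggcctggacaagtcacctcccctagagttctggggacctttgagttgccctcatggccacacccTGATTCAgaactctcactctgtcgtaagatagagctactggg
Icosl, chr10:78069118-78069301, plus strand: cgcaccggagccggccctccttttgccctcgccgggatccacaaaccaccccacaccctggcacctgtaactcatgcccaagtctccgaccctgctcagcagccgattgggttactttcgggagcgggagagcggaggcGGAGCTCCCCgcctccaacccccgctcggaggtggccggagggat
Slamf1, chr1:171766882-171767126, plus strand: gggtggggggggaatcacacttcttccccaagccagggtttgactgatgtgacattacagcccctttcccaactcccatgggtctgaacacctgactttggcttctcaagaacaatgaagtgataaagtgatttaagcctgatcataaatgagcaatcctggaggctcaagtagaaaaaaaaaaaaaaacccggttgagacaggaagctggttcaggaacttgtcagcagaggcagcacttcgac
The Cd80 window, which lies inside the longer GENCODE gene, held 1 AP-1 match at -42 to -36, and the Icosl window held 1 NF-kB match at -111 to -102. None of the 6 motifs was found in the Slamf1 window. Among 32851 mouse promoter windows of this length, 6.75% held the AP-1, 7.25% the NF-kB, 2.44% the PU.1, 1.55% the CRE, 6.02% the E-box and 2.98% the IRF motif. Such matches are letters in a window and no measure of binding.

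The comparison of TDE-treated with CTR BMDCs asked how tumor exosomes altered these ligands and receptors. Tnfsf9, Cd70 and Slamf1 rose and Cd86 and Cd83 fell, while Cd40, Cd80, Icosl and Tnfsf4 did not pass the threshold (edgeR's quasi-likelihood test with Benjamini-Hochberg adjustment over all tested genes, adjusted p under 0.05). Cd70 entered the test through its TDE libraries alone and is left out of the counts that follow. Of the other 8 members 4 were called, 2 higher and 2 lower, where 16.9% of all tested genes were called, 7.57% higher and 9.34% lower. Requiring at least 10 counts in every library also gave 4 of 8, where 17.7% of the genes in that fit were called. The TDE and CTR libraries did not overlap for 4 of the 8, against 44.0% of all tested genes. The median log2 fold change was -0.20 over the 8 and -0.05 over all tested genes.

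The call count depended on single libraries. Without CTR replicate 1, 6 of the 8 were called (3 higher and 3 lower), where 34.4% of genes were. The count was 3 without CTR replicate 2 and 4 without CTR replicate 3, where 12.6% and 25.6% of genes were called. It was 2 without any 1 of the NE replicates (11.1% to 13.1% of genes) and 1, Tnfsf9, without any 1 of the TDE replicates (7.15% to 7.63% of genes).

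TDE-treated and NE-treated BMDCs were compared to set tumor exosomes against exosomes of another cell. This comparison shares its TDE libraries with the first, so the 2 are not independent. Tnfsf9, Cd70, Slamf1 and Cd40 rose and Cd86 fell. Cd70 apart, 4 of 8 members were called, 3 higher and 1 lower, where 13.9% of all tested genes were called, 6.73% higher and 7.21% lower. Groups did not overlap for 7 of the 8, all but Tnfsf4, against 54.5% of all tested genes, and the median log2 fold change was -0.34 over the 8 and -0.02 over all tested genes. Although CTR replicate 1 is in neither group, it entered the shared estimate of the spread. Without it 7 of the 8 were called, 3 higher and 4 lower, all but Cd80, where 40.7% of genes were, and 7 were also called when the 6 libraries of the pair were fitted alone, where 41.9% of genes were. The count was 3 without CTR replicate 2 (11.5% of genes), 4 without CTR replicate 3 (14.0%), 3 without NE replicate 1 (7.35%), and 2 without NE replicate 2 or 3 (7.0% and 8.27%) or any 1 of the TDE replicates (6.29% to 6.72%).

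No member was called between NE-treated and CTR BMDCs (0 of 9 in edgeR, DESeq2 and limma), where 0.0% of all tested genes were called and 487 had an unadjusted p under 0.05. The CTR libraries are shared with the first comparison. The log2 fold changes ran from -0.56 for Cd40 to 0.36 for Tnfsf4, and NE and CTR libraries overlapped for all 9 members. The lowest unadjusted p was 0.0688, for Cd40. For Cd40 (-0.56, SE 0.269) and Cd83 (-0.55, SE 0.297) the values without CTR replicate 1 were -0.20 and -0.07.

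**Figure D2:**
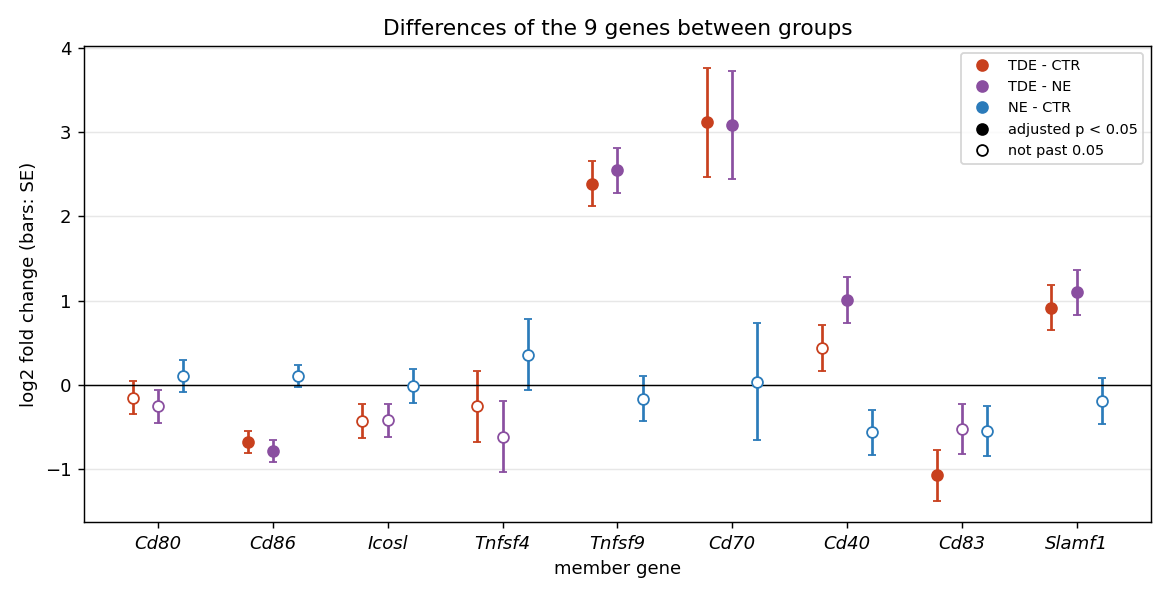
Log2 fold change of each of the 9 genes (points, bars are SE) in TDE against CTR, TDE against NE and NE against CTR, with filled points past an adjusted p of 0.05. Tnfsf9 and Cd70 lay between 2.39 and 3.12 in both TDE comparisons, Cd86 lay at -0.67 and -0.78, and no NE against CTR point was filled.

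Among the B7 ligands, Cd86 fell and Cd80 and Icosl did not pass the threshold. Cd86 stood at 85.1, 91.6 and 106 CPM in CTR replicates 1 to 3, at 109, 103 and 92.5 CPM in NE replicates and at 58.2, 58.6 and 60.9 CPM in TDE replicates. All 3 TDE libraries lay below the other 6 and within a narrow range. The log2 fold change was -0.67 (SE 0.13, adjusted p = 0.0108, edgeR) against CTR and -0.78 (adjusted p = 0.00599, edgeR) against NE. The call against NE held under all 17 alternatives, whereas that against CTR held under 11 of 17 and was lost without TDE replicate 1, 2 or 3 (adjusted p = 0.0655, 0.061 and 0.0549, edgeR).

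Cd80, the second ligand of CD28 and CTLA-4, was measured at 40.2, 56.9 and 67.2 CPM in CTR, at 58.1, 65.8 and 53.3 CPM in NE and at 51.6, 51.6 and 45.2 CPM in TDE replicates. The TDE libraries lay inside the CTR range and just below the NE range. Its log2 fold change was -0.15 (SE 0.194) against CTR and -0.25 (SE 0.194) against NE, with adjusted p = 0.601 and 0.49 (edgeR). It was the member closest to no difference in TDE against CTR, and the value was -0.34 without CTR replicate 1 (adjusted p = 0.0536, edgeR) and 0.03 without CTR replicate 3.

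Because Cd86 and Cd80 share their receptors, their ratio was formed within each library, per kilobase. It was 1.42, 1.08 and 1.06 in CTR, 1.26, 1.04 and 1.16 in NE and 0.756, 0.76 and 0.901 in TDE replicates. Every CTR and NE library thus held more Cd86 than Cd80 per kilobase, and every TDE library less. The means were 1.18 ± 0.201, 1.15 ± 0.106 and 0.806 ± 0.0829 (SD, n = 3), and the two-sided exact permutation p was 0.1 for TDE against CTR and against NE, the smallest that 3 against 3 libraries allow, and 0.8 for NE against CTR.

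Icosl was at 23.6, 34.8 and 40.6 CPM in CTR, at 34.9, 35.3 and 28.4 CPM in NE and at 23.8, 24.9 and 25.02 CPM in TDE replicates. TDE lay below every NE library and below CTR replicates 2 and 3, while CTR replicate 1 was as low as TDE. The log2 fold change of -0.43 (SE 0.201) against CTR and of -0.42 (SE 0.201) against NE did not pass (adjusted p = 0.167 and 0.231, edgeR). Without CTR replicate 1 they were -0.63 and -0.43 and passed (adjusted p = 0.00283 and 0.0102, edgeR).

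Among the TNF-superfamily ligands, Tnfsf9 and Cd70 rose and Tnfsf4 did not pass the threshold. Tnfsf9, which costimulates CD8 T cells through Tnfrsf9, had 2.03, 4.11 and 2.98 CPM in CTR, 2.81, 2.71 and 2.69 CPM in NE and 16.96, 18.3 and 13.01 CPM in TDE replicates. The lowest TDE library was far above the highest of the other 6. This was a 5.26-fold difference against CTR (log2 2.39, SE 0.266, adjusted p = 0.00095, edgeR) and a 5.87-fold difference against NE (log2 2.55, adjusted p = 0.000677, edgeR). Tnfsf9 was the only member past the threshold under all 17 alternatives in both comparisons, with log2 fold changes of 2.0 to 2.68 against CTR.

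Cd70, the ligand of CD27, was close to the detection floor outside the TDE group. It had 9, 2 and 4 reads in CTR, 6, 8 and 2 reads in NE and 37, 42 and 57 reads in TDE replicates, or 0.57, 0.0903 and 0.202, then 0.318, 0.434 and 0.0994, then 2.05, 2.29 and 2.98 CPM. One CTR and 1 NE library were at or under the floor of 3 reads, and no TDE library overlapped the others. The fitted log2 fold change was 3.12 (SE 0.646) against CTR and 3.09 (SE 0.641) against NE, sizes that rest on these few reads and are given as a description, since the gene passed the filter through its TDE libraries alone. The value against CTR was 4.02 without CTR replicate 1. A two-sided exact permutation test, which needs no filter, gave p = 0.1 against either group, the smallest that 3 against 3 libraries allow. Fitted with no filter on low counts, the log2 fold change was 3.18 against CTR and 3.10 against NE (adjusted p = 0.0134 and 0.0158, edgeR). With the filter, adjusted p was above 0.05 against CTR without TDE replicate 3 (0.0606, edgeR), and against NE without NE replicate 1 or 3 or TDE replicate 2 or 3 (0.0534 to 0.0672) and with the replicate block (0.0511).

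Tnfsf4, the ligand of OX40, showed 3.42, 11.7 and 10.5 CPM in CTR, 8.49, 11.8 and 12.8 CPM in NE and 7.09, 9.01 and 5.54 CPM in TDE replicates. The groups overlapped in each comparison, and CTR replicate 1 was the lowest of all 9 libraries, at 0.308 times the mean of the other CTR libraries. Its log2 fold change was -0.25 (SE 0.42, adjusted p = 0.683, edgeR) against CTR and -0.61 (SE 0.421, adjusted p = 0.433, edgeR) against NE. It was -0.64 without CTR replicate 1 and 0.05 without CTR replicate 2 in the comparison with CTR. Against NE it passed without CTR replicate 1 (-0.62, adjusted p = 0.0348, edgeR).

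Cd40, the receptor for T cell help, gave 26.9, 16.4 and 12.1 CPM in CTR, 10.8, 13.1 and 13.6 CPM in NE and 26.1, 26.1 and 23.0 CPM in TDE replicates. All TDE libraries were above all NE libraries and above CTR replicates 2 and 3, whereas CTR replicate 1 was as high as TDE. Against NE, Cd40 rose 2.01-fold (log2 1.01, SE 0.27, adjusted p = 0.0423, edgeR). Against CTR its log2 fold change was 0.44 (SE 0.268, adjusted p = 0.265, edgeR), and without CTR replicate 1 it was 0.80 (adjusted p = 0.00321, edgeR). The call against NE was lost without CTR replicate 2, where adjusted p was 0.062, and without any 1 of the NE or TDE replicates, where adjusted p was 0.0981 to 0.15 (edgeR).

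Cd83 had the highest level of the 9 genes, with 331, 158 and 143 CPM in CTR, 133, 145 and 152 CPM in NE and 98.6, 107 and 94.6 CPM in TDE replicates. All TDE libraries were below all others, and CTR replicate 1 was at 2.2 times the mean of the other CTR libraries. Cd83 fell 2.1-fold against CTR (log2 -1.07, SE 0.3, adjusted p = 0.0436, edgeR). Against NE the log2 fold change was -0.52 (SE 0.297, adjusted p = 0.331, edgeR). Without CTR replicate 1 the values were -0.60 and -0.53, both past the threshold (adjusted p = 0.00105 and 0.000943, edgeR), so the size against CTR depended on that library. The call against CTR held under 8 of 17 alternatives. It was lost without any 1 of the NE replicates (adjusted p = 0.0707 to 0.0762, edgeR) or of the TDE replicates (0.12 to 0.148), with no filter (0.0513), with the pair alone (0.124) and with the replicate block (0.103).

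Slamf1 was expressed at a low level, with 1.90, 1.35 and 2.07 CPM in CTR, 1.96, 1.52 and 1.19 CPM in NE and 3.27, 3.55 and 3.24 CPM in TDE replicates. Every TDE library exceeded the other 6. It rose 1.89-fold against CTR (log2 0.92, SE 0.266, adjusted p = 0.0484, edgeR) and 2.15-fold against NE (log2 1.10, SE 0.267, adjusted p = 0.0283, edgeR). Both calls were close to the threshold and held under 6 and 9 of 17 alternatives. The call against CTR was lost without CTR replicate 2 (adjusted p = 0.113, edgeR), without any 1 NE replicate (0.0538 to 0.0848) and without any 1 TDE replicate (0.134 to 0.148), and that against NE without NE replicate 2 or 3 (0.107 and 0.0923) and without any 1 TDE replicate (0.0919 to 0.105).

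**Figure D3:**
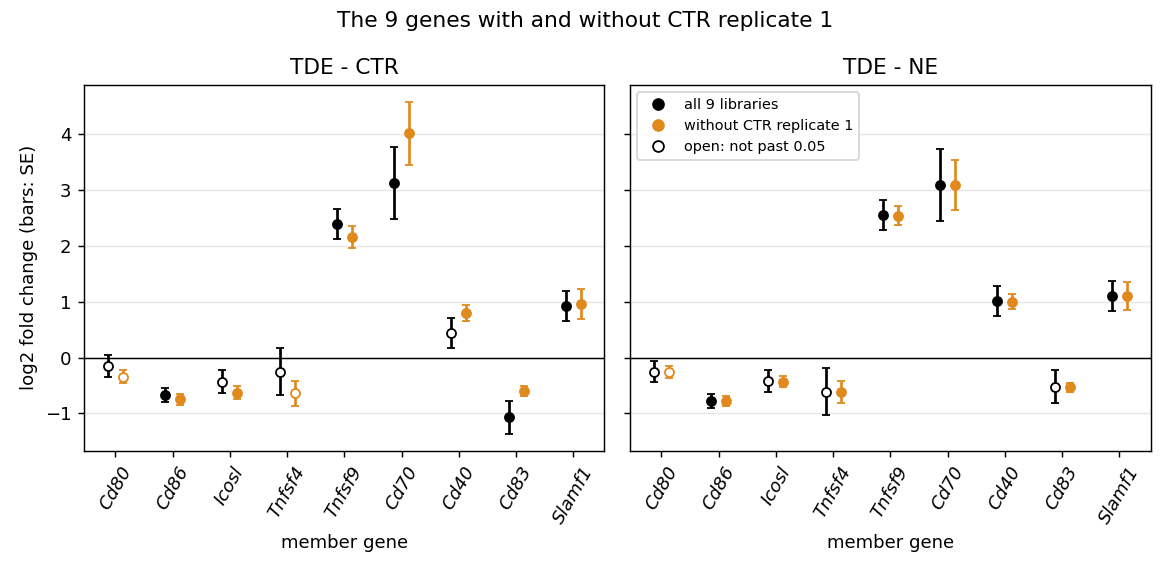
Log2 fold change (points, bars are SE) of the 9 genes with all 9 libraries (black) and without CTR replicate 1 (orange), for TDE against CTR on the left and TDE against NE on the right. On the left Cd83 moved from -1.07 to -0.60, Cd40 from 0.44 to 0.80 and Cd70 from 3.12 to 4.02, while on the right the points stayed within 0.01 and their SE became smaller.

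The members were next set beside related genes of the same families and pathways. Counts of called genes are to be read beside the share of all genes called in the same fit. Against CTR this was 16.9% with all libraries and 34.4% without CTR replicate 1. It was 7.93% in the pair alone, 27.0% in DESeq2 and 52.5% in limma voom. Against NE it was 13.9%, 40.7%, 41.9%, 20.3% and 55.3% in the same order. Without any 1 TDE replicate it was 7.15% to 7.63% against CTR and 6.29% to 6.72% against NE. Among the other B7 family ligands, 3 of the 4 that passed the filter rose in TDE-treated against CTR BMDCs, 0 fell and Vtcn1 did not pass, with a median log2 fold change of 0.84 against -0.05 over all tested genes. These were Cd274 (PD-L1), at 153 ± 67.2 CPM in CTR, 191 ± 11.0 CPM in NE and 527 ± 22.6 CPM in TDE (log2 1.79, adjusted p = 0.00782, edgeR), Pdcd1lg2 (PD-L2; log2 1.0, adjusted p = 0.0255, edgeR) and Vsir (VISTA; log2 0.68, adjusted p = 0.00664, edgeR). All 3 are known for inhibitory signals to T cells, and all 3 also rose against NE, by log2 1.46, 0.88 and 0.69. Leaving out CTR replicate 1 gave 1.46 for Cd274, 0.82 for Pdcd1lg2 and 0.66 for Vsir against CTR. Against CTR the calls of Cd274, Pdcd1lg2 and Vsir held under 17, 10 and 16 of 17 alternatives, with 1 gene called in the pair alone. Against NE they held under 9, 7 and 17 of 17, with 1 gene called without any 1 NE or TDE replicate.

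The balance between Cd274 and the CD28 ligands was read within each library, per kilobase. The ratio of Cd274 to Cd86 was 0.625, 1.39 and 1.33 in CTR, 1.27, 1.35 and 1.35 in NE and 6.52, 6.0 and 6.22 in TDE replicates. The ratio of Cd274 to Cd80 ran from 0.885 to 1.5 in CTR, from 1.41 to 1.6 in NE and from 4.56 to 5.6 in TDE replicates. For both ratios TDE lay above all other libraries. That order follows from the ranges of the genes themselves. The two-sided exact permutation p of 0.1 against either group, the smallest possible, therefore adds nothing to it.

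Of 13 other TNF-superfamily ligands 9 passed the filter, of which 1 rose and 3 fell against CTR, with a median log2 fold change of -0.62. Tnfsf15 rose from 1.2 ± 0.997 CPM in CTR to 9.88 ± 2.03 CPM in TDE (log2 3.0, adjusted p = 0.0311, edgeR). Tnfsf12, the ligand TWEAK (log2 -1.45, adjusted p = 0.0321, edgeR), and Tnfsf13b, the B cell survival factor BAFF (log2 -1.02, adjusted p = 0.0305, edgeR), fell. Leaving out CTR replicate 1 gave 2.47 for Tnfsf15, -0.87 for Tnfsf12 and -0.73 for Tnfsf13b. Tnfsf15 stood at 0.0634 CPM in that library, under the floor, and at 1.63 and 1.92 CPM in CTR replicates 2 and 3. Against NE, 2 rose and 0 fell, Tnfsf15 (log2 3.25) and, named after its values were seen, Tnf (log2 1.13, adjusted p = 0.0143, edgeR), while Tnfsf12 and Tnfsf13b had adjusted p = 0.135 and 0.301 (edgeR). Leaving out CTR replicate 1, 2 were called higher and 3 lower against CTR, and 3 higher and 3 lower against NE. None of the 9 was called against CTR without any 1 of the TDE replicates or in the pair alone, nor against NE without NE replicate 1 or 2 or any 1 of the TDE replicates. The calls of Tnfsf12 and Tnfsf13b against CTR held under 10 and 8 of 17 alternatives, and that of Tnfsf15 under 8 of 16.

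Other SLAM family genes moved in both directions. Of 9 other genes that passed the filter, among them the adaptor Sh2d1b1, 4 rose and 1 fell against CTR. The same counts held against NE, and the medians were 0.22 and 0.27. Slamf9 rose from 40.8 ± 24.3 to 162 ± 5.45 CPM (log2 2.0, adjusted p = 0.00756, edgeR), Cd244a from 11.4 ± 1.29 to 33.5 ± 1.08 CPM (log2 1.55, adjusted p = 0.000481, edgeR) and Slamf7 from 78.1 ± 19.7 to 152 ± 10.5 CPM (log2 0.96, adjusted p = 0.0132, edgeR). Slamf8 fell from 16.9 ± 6.47 to 3.93 ± 0.278 CPM (log2 -2.10, adjusted p = 0.00182, edgeR). Fitted without CTR replicate 1, the values were 2.59 for Slamf9, 1.46 for Cd244a, 0.76 for Slamf7 and -1.76 for Slamf8. With CTR replicate 1 left out, 5 rose and 2 fell in either comparison. The calls of Slamf9, Cd244a and Slamf8 held under all 17 alternatives in both, and those of Slamf7 under 13 against CTR and 7 against NE. The number that rose against CTR was 2 without TDE replicate 1 or 3 and 3 without TDE replicate 2.

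Cd40 signals through TRAF adaptors to NF-kB. Of 19 genes of this route, all of which passed the filter, 3 rose, 2 fell and 14 were not called against CTR, with a median of 0.23. The 3 that rose were the NF-kB inhibitors Nfkbia (log2 1.18, adjusted p = 0.00123, edgeR) and Tnfaip3 (log2 1.2, adjusted p = 0.0395, edgeR) and the ubiquitin ligase Birc3 (log2 1.13, adjusted p = 0.0305, edgeR). Those that fell were Nfkbie, another inhibitor (log2 -0.52, adjusted p = 0.0202, edgeR), and the kinase Map3k14, which drives the non-canonical branch (log2 -0.49, adjusted p = 0.0399, edgeR). Fitted without CTR replicate 1, the values were 1.17 for Nfkbia, 0.86 for Tnfaip3 and 0.83 for Birc3. For Nfkbie and Map3k14 they were -0.46 and -0.52. Against NE edgeR called Nfkbia alone (log2 1.25, adjusted p = 0.000904). Of the 19, DESeq2 called 5 (20.3% of all genes), limma voom 14 (55.3%) and the pair alone 9 (41.9%). When CTR replicate 1 was left out, 4 rose and 4 fell against CTR, and 5 rose and 4 fell against NE. The count against CTR was 2 without CTR replicate 2 or NE replicate 1 or 2, 4 without NE replicate 3, and 1, Nfkbia, without any 1 of the TDE replicates. Nfkbia was called under all 17 alternatives in both comparisons, whereas against CTR Birc3 and Tnfaip3 were called under 8, Nfkbie under 9 and Map3k14 under 6. Among the genes that edgeR did not call with all 9 libraries were the 5 NF-kB subunits and Traf1, Traf2, Traf3, Traf5 and Traf6.

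In the dendritic cell maturation list, 16 of 18 genes passed the filter and moved both ways, 3 rising, 3 falling and 10 not called against CTR, with a median of -0.19. The cytokines Il6 (2.39 ± 1.12 to 11.6 ± 0.677 CPM, log2 2.26, adjusted p = 0.00422, edgeR) and Il12b (116 ± 1.29 to 201 ± 12.4 CPM, log2 0.79, adjusted p = 0.0028, edgeR) and the surface protein Cd200 (log2 0.71, adjusted p = 0.0398, edgeR) rose. Ccr7, the receptor that guides mature dendritic cells to lymph nodes, fell from 499 ± 228 to 186 ± 12.1 CPM (log2 -1.42, adjusted p = 0.0131, edgeR), and the chemokine Ccl17 fell from 13.7 ± 15.8 to 2.09 ± 0.456 CPM (log2 -2.70, adjusted p = 0.050, edgeR, just under the threshold). Against NE, 4 rose, which were Il6, Il12b, Cd200 and, named after its values were seen, Ebi3 (log2 1.61, adjusted p = 0.0459, edgeR), and 0 fell, with adjusted p = 0.082 for Ccr7 and 0.395 for Ccl17 (edgeR). Without CTR replicate 1, 4 rose and 4 fell against CTR, and 5 rose and 4 fell against NE. Against CTR 4 were called without CTR replicate 2, 3 without NE replicate 1 or 2, and 2, Il6 and Il12b, without any 1 of the TDE replicates. Both cytokines were called under all 17 alternatives in either comparison, while against CTR Cd200 was called under 7, Ccr7 under 13 and Ccl17 under 8. Ccl17 stood at 31.9, 5.37 and 3.83 CPM in CTR replicates 1 to 3, and without replicate 1 its log2 fold change was -1.15. For Ccr7, at 761, 398 and 339 CPM, it was -1.0. The same fit gave 1.94 for Il6, 0.79 for Il12b and 0.53 for Cd200.

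The receptors that T cells carry for the members, and Cd40lg, the ligand of Cd40, were measured in the same libraries. Of these 7 genes 5 passed the filter, all of them receptors. None was called against CTR (0 of 5 in edgeR, with 4 at an unadjusted p under 0.05, 1 called by DESeq2 and 4 by limma voom). With CTR replicate 1 left out, edgeR called 1 higher and 2 lower. Tnfrsf9, the receptor of Tnfsf9, was at 21.5 to 37.2 CPM in CTR, 15.9 to 19.4 CPM in NE and 38.7 to 42.9 CPM in TDE replicates, and it alone was called against NE (log2 1.26, adjusted p = 0.00613, edgeR), named after its values were seen. In that comparison DESeq2 called 2, limma voom and the pair alone 5 each, and edgeR without CTR replicate 1 called 1 higher and 3 lower. The T and NK cell markers summed to 5.28 to 11.0 CPM in CTR, 4.3 to 4.45 in NE and 1.09 to 2.35 in TDE. Of these 8 markers 4 passed the filter, and which cells carried the receptor RNA was not tested.

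**Figure D4:**
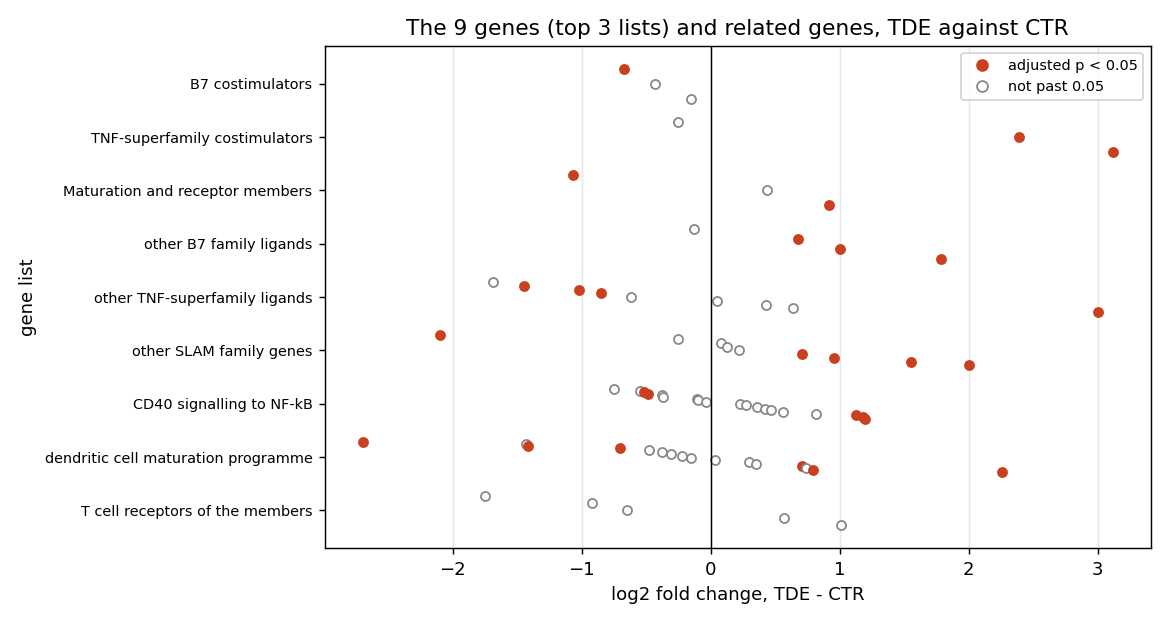
Log2 fold change in TDE against CTR of the 9 members (top 3 lists) and of the tested genes of 6 related lists, 1 point a gene, red and filled past an adjusted p of 0.05. Genes past the threshold lay on the higher side alone for the other B7 family ligands. They lay on both sides for the other TNF-superfamily ligands and the SLAM, CD40 signalling and maturation lists. Among the receptors that T cells carry for the members, none was past the threshold.

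The members did not form 1 pattern across the 9 libraries. As a description over libraries that share groups and depth, the Pearson correlation of log2 CPM was 0.926 between Cd70 and Slamf1, 0.85 between Tnfsf9 and Slamf1, 0.835 between Tnfsf9 and Cd70, and -0.921 between Cd86 and Tnfsf9. Cd80 and Icosl correlated at 0.876, Cd80 and Cd86 at 0.576, and Cd40 and Cd83 at -0.00626. The most alike genes of at least 5 CPM were Thra, Pim1 and Ddit4 for Tnfsf9 (0.993 each), Rnf150 and Mybbp1a for Cd86 (0.993 each), Jmjd6, Tmem176a and Pola2 for Cd40 (0.984 to 0.992) and Pi16, Slc22a18 and Tmc6 for Cd83 (0.994 to 0.997). They were Fgr, Prkcb and Trappc9 for Cd70 (0.977 to 0.985), Dock6, Plxdc2 and Ptprv for Slamf1 (0.973 to 0.989), Gm5431, Nedd9 and Vezf1 for Cd80 (0.962 to 0.971) and Tmem69, Cxcr2 and Zfp943 for Tnfsf4 (0.964 to 0.986). For Icosl they were Pot1b and Tmem181b-ps (0.986 and 0.974) and an entry without a gene name (0.978).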

How the data were processed

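RNA of 9 BMDC libraries was sequenced on an Illumina NovaSeq instrument after TRIzol extraction and priming with oligo(dT) and random primers. The submitters' processing notes name TopHat2 2.1.1, DESeq2 1.24.0 and R 3.3.1. The counting program, genome build and annotation are not given in the sources used here. The authors deposited estimated counts (expected counts) without normalization, 5964 to 7750 genes per library having a fractional value, and they were rounded here. Genes were filtered with filterByExpr, normalized by TMM and fitted with 1 mean per group over all 9 libraries in edgeR 4.0.16 (R 4.3.3), and p-values of the quasi-likelihood F test were adjusted by Benjamini-Hochberg over 15028 genes, with a threshold of 0.05 and SE taken as the log2 fold change over the square root of F. Alternatives were DESeq2 1.42.0, limma 3.58.1 (voom with sample quality weights), other scaling, filters and library sets, a block for the replicate number, and fits that left out 1 library at a time. Single values were compared by exact permutation tests. The authors' group means were not used.

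The 9 members and the lists of related genes and markers were chosen with earlier results of these data known. Named genes were all members, in each related list the 3 highest and 2 lowest log2 fold changes among genes called in TDE against CTR with a mean of at least 1 CPM, and per member the 3 genes of at least 5 CPM with the highest correlation, of which 1 is not reported here. Of the marker lists not given above, fibroblast markers summed to 4.45 to 8.05 CPM and epithelial markers to 4.42 to 12.8 CPM.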

Additional observations from a re-analysis of the deposited data

How the results depend on the processing

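Of the 8 members other than Cd70, 4 were called in TDE against CTR, where 16.9% of all tested genes were. Limma voom called 8 (52.5%), library totals 2 (13.4%) and no filter on low counts 1 (6.0%). The 6 libraries of the pair alone gave 2 (7.93%) and the replicate block 1 (8.55%). Leaving out 1 library gave 1 to 6 (7.15% to 34.4%). With a limit of 1 on the log2 fold change, Tnfsf9 (2.39) and Cd83 (-1.07) remained. The share of all genes past that limit was not computed. In TDE against NE 4 of the 8 were called (13.9%), where limma voom called 8 (55.3%), the pair alone 7 (41.9%) and the replicate block 2 (7.82%). Leaving out 1 library there gave 2 to 7 (6.29% to 40.7%). DESeq2 and median-ratio factors each gave 4 of the 8 in both comparisons, and no alternative called a member in NE against CTR. Deviations from the group mean were correlated between libraries of the same replicate number. The values were -0.0562 to 0.0723 in TDE against CTR, -0.0712 to 0.0267 in TDE against NE and -0.585 to 0.185 in NE against CTR. Each mean holds only 3 libraries, and in CTR replicate 1 stood apart, so these values do not settle whether the libraries were paired. Log2 fold changes that changed sign were small or rested on few reads. In TDE against CTR, leaving out 1 library gave -0.34 to 0.03 for Cd80 and -0.64 to 0.05 for Tnfsf4. In NE against CTR it gave -0.07 to 0.29 for Cd80, -0.20 to 0.17 for Icosl, -0.01 to 0.66 for Tnfsf4, -0.38 to 0.13 for Tnfsf9 and -0.41 to 0.93 for Cd70, while Icosl was at 0.08 with library totals, 0.02 with no filter and 0.02 with the replicate block, Tnfsf4 at -0.16 and Slamf1 at 0.21 with limma voom. The cause was not tested. Cd70 had no value where 10 counts were required in every library or in the NE against CTR pair alone, where it was filtered out. Its depth of 2 to 9 reads outside the TDE group limits the size of its fold change.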
